A study of Mus musculus with 32 samples.

Results

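The 8 mast cell genes Cpa3, Cma1, Mcpt4, Tpsb2, Ms4a2, Fcer1a, Hdc and Gata2 were followed in the lungs of 32 newborn mice. They were taken by gene symbol from the array annotation, which assigned them 9 of the 55681 mouse probes, with a pair of probes for Tpsb2. The mice were wild-type C57Bl/6J pups, 4 in each of 8 groups, with 1 mouse per array. Exposure to 85% O2, used as a model of bronchopulmonary dysplasia, was compared with room air (21% O2), and every pup also received a locked nucleic acid oligonucleotide, either a scrambled antimiR or antimiR-34a, which blocks the microRNA miR-34a. Lungs flushed with saline were taken at P5 or P14, so the 8 groups are P5 and P14, each in 21% or 85% O2, each with scrambled antimiR or antimiR-34a. Oxygen exposure began at P1, and pups of both sexes were used. No group was untreated: the controls had the scrambled antimiR. The whole lung was measured, so a change in the number of mast cells and a change in mRNA per mast cell cannot be told apart.

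Mast cells are tissue-resident immune cells that develop from blood cell progenitors under the control of GATA2 and mature in connective tissue around airways, vessels and the pleura. They store histamine, heparin and a set of proteases in granules and release them when IgE bound to the high-affinity IgE receptor is crosslinked. Cpa3 encodes carboxypeptidase A3, Cma1 and Mcpt4 encode chymases, and Tpsb2 encodes a tryptase, all of them granule proteases. Fcer1a and Ms4a2 encode the alpha and beta chains of the IgE receptor. Hdc encodes histidine decarboxylase, which makes histamine and is also found in basophils and neutrophils. Gata2 is also expressed in endothelium and megakaryocytes.

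The granule protease genes carried the main finding below, so the 250 bases before the transcription start of Cpa3, Cma1 and Mcpt4 are printed, followed by Hdc, which moved the other way. The promoter of Tpsb2 was not analysed here. They come from RefSeq (GRCm38.p6) and are written 5′ to 3′ in the direction of the gene: Cpa3 at chr3:20242182-20242431, Cma1 at chr14:55944676-55944925, Mcpt4 at chr14:56062311-56062560 and Hdc at chr2:126618679-126618928, all on the minus strand. Capitals mark matches to the GATA motif, searched on both strands as AGATAA or AGATAG and as TGATAA or TGATAG. No other motif was searched.
Cpa3: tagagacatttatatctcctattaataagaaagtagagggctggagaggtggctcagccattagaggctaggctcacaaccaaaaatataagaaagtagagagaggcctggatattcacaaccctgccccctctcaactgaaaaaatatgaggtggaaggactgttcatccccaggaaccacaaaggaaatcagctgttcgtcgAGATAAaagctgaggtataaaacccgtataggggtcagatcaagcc
Cma1: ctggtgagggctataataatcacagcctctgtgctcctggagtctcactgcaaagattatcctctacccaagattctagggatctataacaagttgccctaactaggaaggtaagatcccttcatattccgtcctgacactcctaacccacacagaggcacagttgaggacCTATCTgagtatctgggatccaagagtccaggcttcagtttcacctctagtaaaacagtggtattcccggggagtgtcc
Mcpt4: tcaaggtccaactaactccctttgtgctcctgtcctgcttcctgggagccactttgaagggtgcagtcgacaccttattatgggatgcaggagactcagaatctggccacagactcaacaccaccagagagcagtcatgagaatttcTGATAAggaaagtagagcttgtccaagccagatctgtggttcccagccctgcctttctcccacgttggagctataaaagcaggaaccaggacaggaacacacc
Hdc: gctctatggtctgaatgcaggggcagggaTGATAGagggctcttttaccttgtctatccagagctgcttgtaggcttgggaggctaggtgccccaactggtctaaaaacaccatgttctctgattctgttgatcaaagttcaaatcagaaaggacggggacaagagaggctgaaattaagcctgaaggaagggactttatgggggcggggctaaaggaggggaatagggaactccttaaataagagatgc
Each of the 4 windows holds 1 match, which begins 46 bases before the start in Cpa3, 79 in Cma1, 103 in Mcpt4 and 221 in Hdc. Among the 8 promoter windows found for 7 of the genes, 6 hold at least 1 match, against 26.5% of all 32851 promoter windows in the table. Ms4a2 has 3 matches, a number that 1.35% of all windows reach, and both windows of Gata2 have none. A match is a run of letters and was not shown to be a binding site.

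Levels are given as log2 of the processed spot signal minus the 75th percentile of its array, so 0 is the level of a fairly bright probe, and values of different probes cannot be ranked against each other. Probes entered the limma fit when some group had them well above background in all 4 of its lungs, and a probe was called at a Benjamini-Hochberg adjusted p under 0.05 over all tested probes. By this rule 7 of the 8 genes could be tested at P5 and 6 at P14. The probe for Ms4a2 was not well above background on any of the 32 arrays. Fcer1a passed on 17 of 32 arrays, on 13 of the 16 at P5 and on 4 of the 16 at P14. The other genes passed on all 32 arrays. Of 6 other granule protease genes, Mcpt1 passed on 0 arrays, Mcpt9 on 2, Tpsab1, another tryptase gene, on 7, Mcpt2 on 14, Tpsg1 on 16 and Ctsg on 31. Of 9 receptor and signalling genes, Mrgprb2 passed on 0 arrays and Mrgprb1 on 1, and the other 7, with Kit, Fcer1g and Il1rl1 among them, on all 32. The alpha and beta chains of the IgE receptor and the Mrgprb receptors were thus near or below the limit of the arrays, whereas Kit, Fcer1g and Il1rl1, receptor genes that other cells express too, were above it throughout.

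On the mm9 build, the probes lie at chr3:20115674-20115733 (Cpa3), chr14:56678589-56678648 (Mcpt4), chr1:175151438-175151497 (Fcer1a), chr19:11691701-11691760 (Ms4a2), chr2:126419516-126419575 (Hdc) and chr6:88156362-88156421 (Gata2). The brighter Tpsb2 probe, which stands for the gene in all counts, lies at chr17:25504819-25504878 and the dimmer at chr17:25504493-25504552. The annotation gives no position for the Cma1 probe. The sequences of the Cma1 probe and of the dimmer Tpsb2 probe are shown because the chymase and tryptase families hold close copies to which a probe may also bind, which was not tested.
Cma1 probe: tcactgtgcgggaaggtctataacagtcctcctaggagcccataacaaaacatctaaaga
Tpsb2 dimmer probe: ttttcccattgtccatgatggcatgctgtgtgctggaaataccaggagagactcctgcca

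The arrays lay on 4 slides, and each slide held a single age and oxygen level with both antimiRs. Effects of oxygen and age therefore cannot be told apart from slide. On every slide each antimiR had a row of its own, so the effect of antimiR-34a cannot be told apart from row. The P5 and P14 arrays were scanned on different days, so age cannot be told apart from scan day either. Probes well above background numbered 39012 to 40786 per array in 21% O2 at P14 and 34617 to 36476 in 85% O2. The lowest number, 33614, came from replicate 3 of the antimiR-34a group in 85% O2 at P5. At P5 in 21% O2 with scrambled antimiR, the summed level of 8 skeletal muscle genes ran from 1.87 to 6.96, with replicate 4 at the top. Markers of tissue around the lung were also counted at P14, where 28.4% of all probes were called higher and 32.4% lower with scrambled antimiR. With scrambled antimiR, 6 of 6 tested adipocyte genes and 4 of 5 thymus genes fell, 4 of 7 skeletal muscle genes and 1 of 6 heart muscle genes fell, and of 5 genes each of cartilage and mesothelium 1 rose and 2 fell. Of these, the adipocyte genes Adipoq, Cfd, Car3, Cidec and Retn and the thymus genes Rag1 and Ptcra could be tested only through 21% O2 groups, where they were high, so that the filter set their direction. Plin1, the adipocyte gene above background on every array, fell by 2.89 with scrambled antimiR and by 2.88 with antimiR-34a. Over both antimiRs the adipocyte genes' summed log2 level was 1.36 to 5.22 in 21% O2 and -3.52 to 1.41 in 85% O2. With antimiR-34a at P14, 6 of 6 adipocyte, 2 of 7 skeletal muscle and 1 of 6 heart muscle genes were called lower. Calls were 1 higher and 4 lower of 5 thymus genes, 1 and 2 of 5 cartilage genes and 1 and 1 of 5 mesothelium genes. Of all probes, 27.8% were called higher and 37.8% lower. At P5 with scrambled antimiR, 4 of 6 heart muscle, 3 of 7 skeletal muscle, 2 of 4 adipocyte and 1 of 4 thymus genes fell, 1 cartilage gene rose and 1 fell of 4, and the 5 mesothelium genes, none of them called, had a median log2 fold change of -0.04. Of all probes, 17.5% were called higher and 26.4% lower there. With antimiR-34a at P5 the calls were 1 of 6 heart muscle, 1 of 7 skeletal muscle, 1 of 4 adipocyte and 2 of 4 thymus genes lower, 1 higher and 2 lower of 4 cartilage genes, and 1 of 5 mesothelium genes higher. Here 17.2% of all probes were called higher and 29.5% lower. The part of these tissues in the results was not tested.

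In 85% O2 at P14, the granule protease genes rose steeply. With scrambled antimiR, Mcpt4 was 9.14-fold, Cma1 7.62-fold, Cpa3 4.33-fold and Tpsb2 2.17-fold higher than in 21% O2, whereas Hdc and Gata2 fell. With antimiR-34a the same 4 proteases rose 9.14-fold, 10.6-fold, 4.86-fold and 1.90-fold. All 6 tested genes were called in each antimiR group, 4 higher and 2 lower. Over all tested probes, 28.4% were called higher and 32.4% lower with scrambled antimiR, and 27.8% and 37.8% with antimiR-34a. The median log2 fold change of the 6 genes was 1.62 and 1.60, against -0.06 and -0.11 over all probes.

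**Figure D1:**
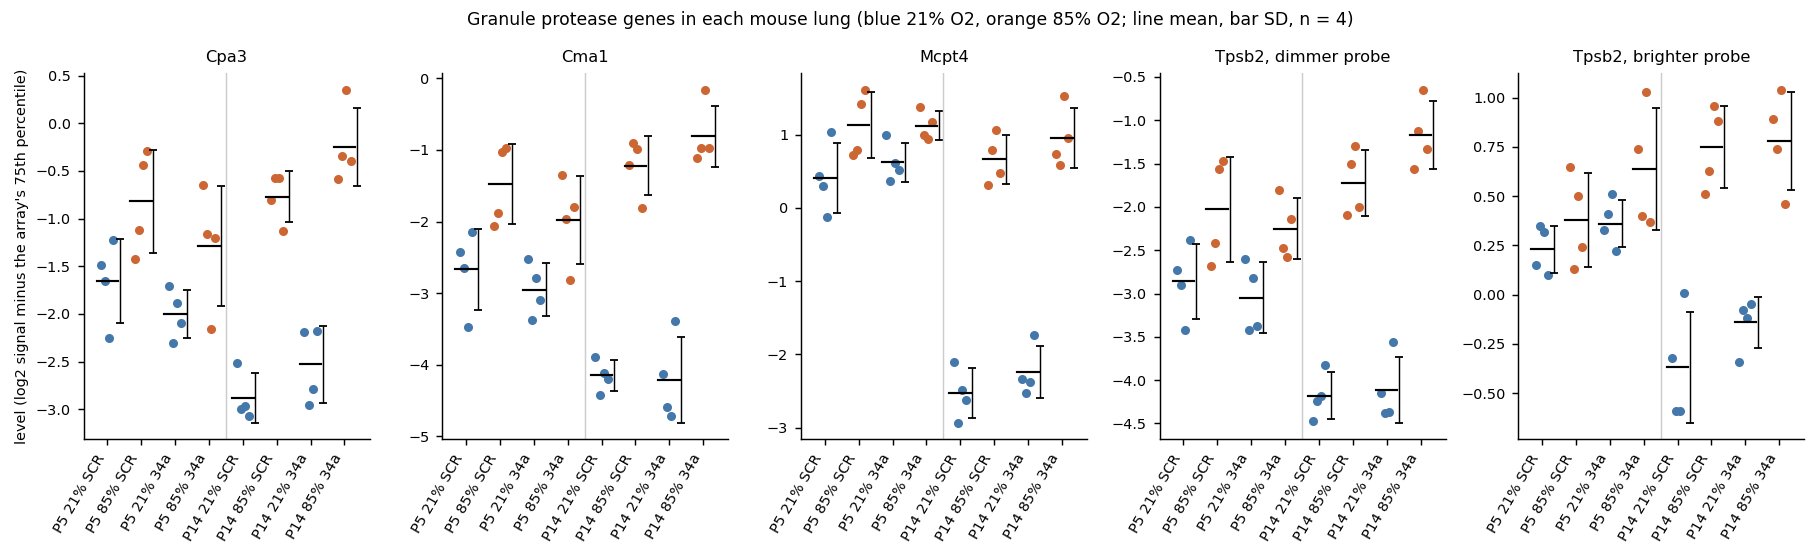
Log2 level of the granule protease genes in each mouse, by age (P5 left, P14 right of the grey line), oxygen level and antimiR (SCR, scrambled; 34a, antimiR-34a), with the mean and SD of each group (n = 4). At P14 all 8 lungs from 85% O2 lie above all 8 from 21% O2 in each panel, and at P5 the oxygen groups lie closer together.

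The chymase gene Mcpt4 had levels of -2.10, -2.93, -2.49 and -2.62 in the 4 lungs from 21% O2 with scrambled antimiR at P14. In 85% O2 the levels were 0.31, 0.79, 1.06 and 0.47. The groups were far apart, and the lowest lung in 85% O2 lay above the highest in 21% O2. The log2 fold change was 3.19 ± 0.24 (SE, n = 4 per group, limma, adjusted p = 1.53e-07), and 0.218% of tested probes had a larger value. With antimiR-34a the levels were -2.34, -2.52, -2.38 and -1.74 in 21% O2 and 0.73, 0.58, 1.52 and 0.96 in 85% O2. These groups did not overlap either, and the log2 fold change was again 3.19 ± 0.24 (adjusted p = 1.45e-07).

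For the other chymase gene, Cma1, the P14 levels with scrambled antimiR were -3.89, -4.42, -4.11 and -4.20 in 21% O2 and -1.21, -0.90, -0.98 and -1.81 in 85% O2. With antimiR-34a they were -4.13, -4.59, -4.72 and -3.39 in 21% O2 and -1.11, -0.97, -0.16 and -0.97 in 85% O2. All lungs in 85% O2 were above all lungs in 21% O2. The log2 fold change was 2.93 ± 0.29 with scrambled antimiR (adjusted p = 1.82e-06) and 3.40 ± 0.29 with antimiR-34a (adjusted p = 4.55e-07).

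Cpa3, whose product trims peptides inside the granule and after release, had levels of -2.51, -3.00, -2.97 and -3.07 in 21% O2 with scrambled antimiR and of -0.80, -0.57, -0.57 and -1.13 in 85% O2. With antimiR-34a the levels were -2.19, -2.95, -2.79 and -2.18 in 21% O2 and -0.59, -0.34, 0.35 and -0.40 in 85% O2. The groups were again separate, with log2 fold changes of 2.12 ± 0.23 (adjusted p = 3.86e-06) and 2.28 ± 0.23 (adjusted p = 1.83e-06).

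The probes of Tpsb2 agreed in direction at P14 but not in size. On the brighter probe the level rose from -0.37 ± 0.28 (SD, n = 4) to 0.75 ± 0.21 with scrambled antimiR, a log2 fold change of 1.12 ± 0.15 (SE, adjusted p = 3.39e-05). On the dimmer probe it rose from -4.18 ± 0.27 to -1.72 ± 0.38, by 2.46 ± 0.24 (adjusted p = 1.54e-06). With antimiR-34a the changes were 0.93 ± 0.15 and 2.94 ± 0.24. On both probes the oxygen groups did not overlap.

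Hdc, the gene of histamine synthesis, moved against the proteases. At P14 with scrambled antimiR its levels were 2.72, 2.87, 2.86 and 2.80 in 21% O2 and 1.95, 1.87, 2.22 and 2.31 in 85% O2. No lung in 85% O2 reached the lowest in 21% O2, and the log2 fold change was -0.72 ± 0.14 (adjusted p = 0.000405), 1.65-fold lower. It was -0.71 ± 0.14 with antimiR-34a (adjusted p = 0.000389). Of 8 neutrophil genes, which mark another source of Hdc, 2 were higher and 1 lower in the same scrambled antimiR comparison, and of 3 tested basophil genes 1 was higher. Their part in the fall of Hdc was not tested.

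Gata2, the transcription factor of the lineage, fell less. Its P14 levels with scrambled antimiR were 1.91, 2.18, 1.84 and 2.15 in 21% O2 and 1.55, 1.62, 1.87 and 1.76 in 85% O2, so that 1 lung in 85% O2 overlapped with 21% O2. The log2 fold change was -0.32 ± 0.11 (adjusted p = 0.0176), and the call was lost without replicate 2 or replicate 4 in 21% O2 or replicate 1 in 85% O2 (adjusted p of 0.0530 to 0.0587). With antimiR-34a the groups did not overlap and the change was -0.48 ± 0.11 (adjusted p = 0.00117). Of the 8 endothelial genes, which mark another source of Gata2, 3 were higher and 2 lower with either antimiR, and of the 6 megakaryocyte genes 2 were higher, with 2 lower under scrambled antimiR and 1 under antimiR-34a. Their part was not tested.

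**Figure D2:**
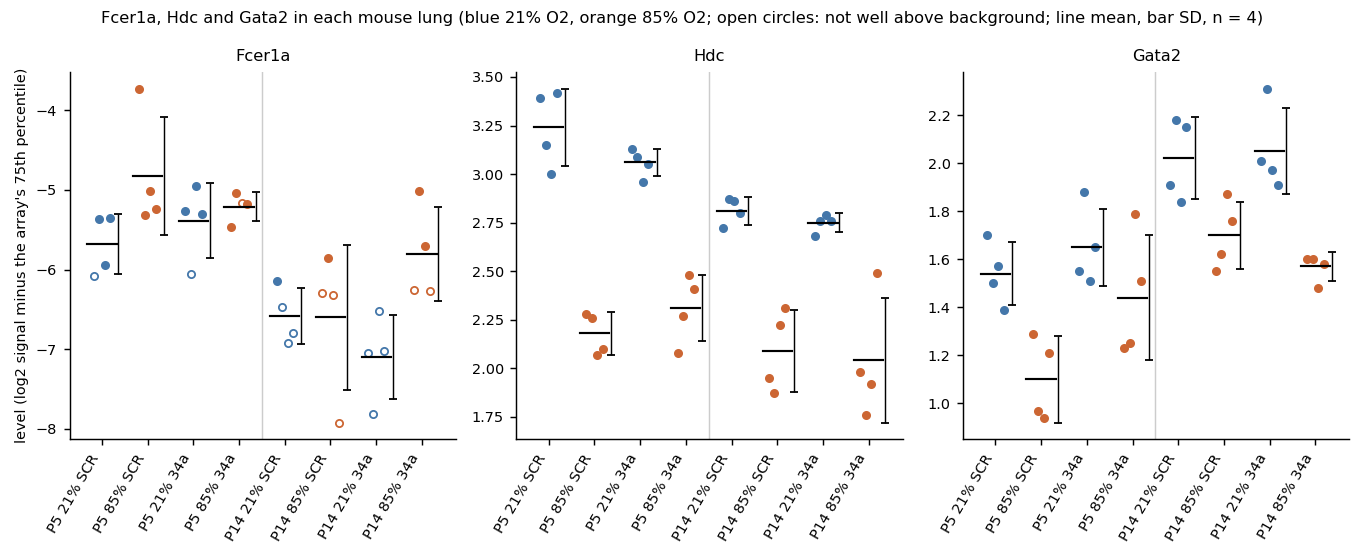
Log2 level of Fcer1a, Hdc and Gata2 in each mouse by age, oxygen level and antimiR, with the mean and SD of each group (n = 4). Open circles are arrays on which the probe was not well above background, as for most P14 lungs with Fcer1a. For Hdc, every lung in 85% O2 lies below every lung in 21% O2 of the same age and antimiR.

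At P5 the protease genes differed less between oxygen levels than at P14, while Hdc and Gata2 were again lower in 85% O2 with scrambled antimiR. With scrambled antimiR, 6 of the 7 tested genes were called: Cma1 (2.28-fold), Fcer1a (1.81-fold), Cpa3 (1.78-fold) and Mcpt4 (1.65-fold) rose in 85% O2, and Hdc (2.09-fold) and Gata2 (1.36-fold) fell. Fcer1a could be tested only because it was above background on all 4 arrays of this 85% O2 group, so its call is no independent evidence, and without it 5 of 6 genes were called. Of all tested probes, 17.5% were called higher and 26.4% lower. With antimiR-34a only Cma1 (1.96-fold higher) and Hdc (1.68-fold lower) were called, where 17.2% of all probes were called higher and 29.5% lower. Whether the oxygen effect differed between the antimiRs was tested separately and is given further below. The P5 calls of the proteases were close to the threshold, with adjusted p between 0.0138 and 0.0455 in the scrambled antimiR group.

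The P5 levels of Cma1 with scrambled antimiR were -2.42, -2.65, -3.47 and -2.14 in 21% O2 and -2.06, -1.88, -1.03 and -0.97 in 85% O2. The groups touched without overlap, and the log2 fold change was 1.19 ± 0.35 (adjusted p = 0.0138). For Cpa3 they were -1.49, -1.65, -2.25 and -1.22 in 21% O2 and -1.42, -1.12, -0.44 and -0.29 in 85% O2. These groups overlapped, with a change of 0.84 ± 0.32 (adjusted p = 0.0455). The Cpa3 call was lost in 5 of the 8 fits with 1 lung left out. It was also lost when only the groups compared were fitted (0.051) and with the methods' t-test (0.118). For Mcpt4 they were 0.43, 0.30, -0.12 and 1.03 against 0.72, 0.79, 1.42 and 1.61. These groups overlapped too, with a change of 0.72 ± 0.24 (adjusted p = 0.0251). The Mcpt4 call was lost in 4 of the 8 fits with 1 lung left out, with only the groups compared (0.0673) and with the methods' t-test (0.139).

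The probes of Tpsb2 disagreed at P5. The brighter probe was not called, with 0.15 ± 0.15 with scrambled antimiR (adjusted p = 0.421) and 0.27 ± 0.15 with antimiR-34a (adjusted p = 0.140). The dimmer probe rose by 0.82 ± 0.30 (adjusted p = 0.0388) and 0.81 ± 0.30 (adjusted p = 0.0400). Fcer1a was near background at this age, with levels of -6.08, -5.36, -5.94 and -5.35 in 21% O2 and -3.73, -5.31, -5.02 and -5.24 in 85% O2. Replicate 1 in 85% O2 stood above the other lungs, and without it the log2 fold change was 0.49 in place of 0.86 (adjusted p = 0.107). It was not called either without replicate 1 or 3 in 21% O2 or replicate 3 in 85% O2 (adjusted p of 0.0561 to 0.112). With another background correction (normexp) it was 0.26 (adjusted p = 0.148), which was not called.

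Hdc gave the smallest adjusted p of the 7 genes at P5. Its levels with scrambled antimiR were 3.39, 3.15, 3.00 and 3.42 in 21% O2 and 2.28, 2.26, 2.07 and 2.10 in 85% O2. The groups lay well apart, with a log2 fold change of -1.06 ± 0.10 (adjusted p = 2.83e-06). With antimiR-34a it was -0.75 ± 0.10 (adjusted p = 5.53e-05), also without overlap. Gata2 fell by 0.44 ± 0.13 with scrambled antimiR (adjusted p = 0.0135) and its change was -0.21 ± 0.13 with antimiR-34a (adjusted p = 0.206).

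The number of P5 calls depended on single lungs. With scrambled antimiR it was 3 of 7 without replicate 3 in 21% O2 and also without replicate 3 in 85% O2, but 6 without the lung that carried skeletal muscle RNA. With antimiR-34a it was 4 without replicate 3 in 85% O2, the array with the fewest probes above background, and 1 when any of 5 other lungs was left out. After Benjamini-Hochberg adjustment the methods' t-test called 2 genes with scrambled antimiR (Hdc and Gata2) and 1 with antimiR-34a, against 5 and 6 at P14.

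**Figure D3:**
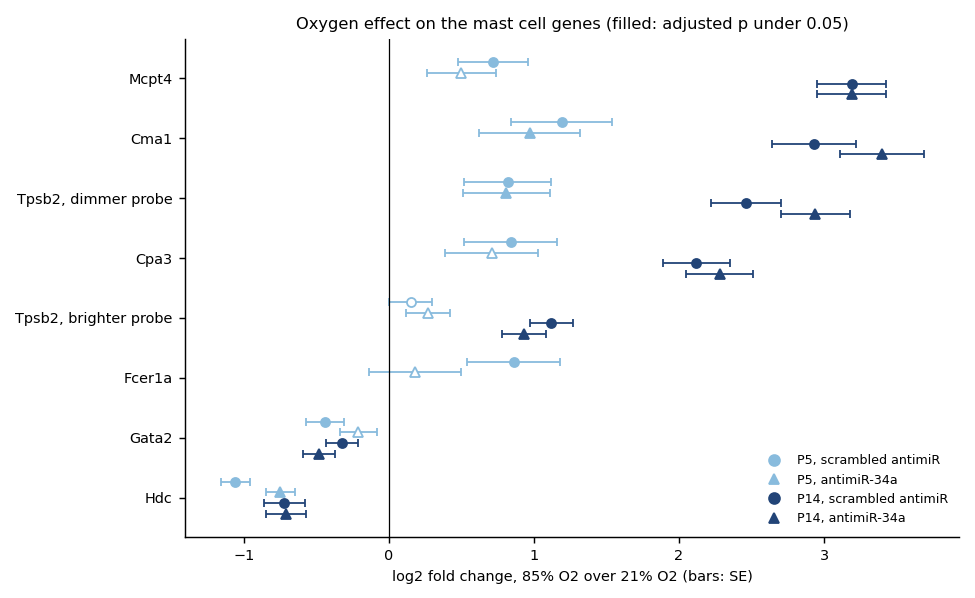
Log2 fold change of 85% O2 over 21% O2 with its SE for each gene at P5 (light) and P14 (dark), with scrambled antimiR (circles) or antimiR-34a (triangles). Filled symbols were called. Mcpt4, Cma1, Cpa3 and both Tpsb2 probes lie farther to the right at P14 than at P5, while Hdc and Gata2 lie left of 0 at both ages.

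The oxygen effect was larger at P14 than at P5 for the 4 proteases, and this difference was itself called. With scrambled antimiR the oxygen effect on the log2 scale was larger at P14 by 2.47 ± 0.35 for Mcpt4 (adjusted p = 6.81e-06), 1.74 ± 0.47 for Cma1 (adjusted p = 0.00484), 1.28 ± 0.41 for Cpa3 (adjusted p = 0.0137) and 0.97 ± 0.22 for Tpsb2 (adjusted p = 0.000942). With antimiR-34a it was larger by 2.69, 2.43, 1.57 and 0.65. Thus 4 of 7 genes were called higher and 0 lower in each antimiR group, where 23% of all probes were called higher and 17.9% lower with scrambled antimiR and 22.3% and 20.7% with antimiR-34a. Fcer1a, Hdc and Gata2 were not called. The difference of 1.11 for Fcer1a with antimiR-34a (adjusted p = 0.101) became 1.72 with quantile scaling or the authors' values. It was then called (adjusted p = 0.0164 and 0.0166), but Fcer1a was near background and tested only through the P5 group in 85% O2 with scrambled antimiR. Leaving out any of the 32 arrays kept the count at 4.

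The ages were also compared within each oxygen level, across slides. In 21% O2 the protease genes were lower at P14 than at P5, apart from Cpa3 with antimiR-34a, which was not called, and in 85% O2 none of them was called lower. With scrambled antimiR in 21% O2, Mcpt4 fell 7.70-fold between the ages (log2 fold change -2.94 ± 0.25, adjusted p = 7.25e-10), Cma1 2.80-fold, Cpa3 2.35-fold, Tpsb2 1.52-fold and Hdc 1.35-fold. Gata2 rose 1.40-fold. In the antimiR-34a group the log2 fold change of Mcpt4 was -2.87 ± 0.25 and that of Cpa3 was -0.52 ± 0.29, which was not called (adjusted p = 0.120). Fcer1a was not above background on any P14 array of this group and was at least 1.5-fold lower there than at P5, a bound taken from the faintest probe above background on each array (adjusted p = 0.000468). With normexp the change was -0.33 and not called (adjusted p = 0.0719). Fcer1a entered the fit only through the P5 group in 85% O2 with scrambled antimiR, so its call is a description. In each antimiR group 1 gene was called higher and 5 lower, Fcer1a among the 5 with antimiR-34a, where 27.8% and 23.5% of all probes were called with scrambled antimiR and 29.8% and 28.1% with antimiR-34a. The Hdc call with antimiR-34a (-0.31, adjusted p = 0.0319) was lost with quantile scaling (adjusted p = 0.0697), with the authors' values (0.0709) and without any of 6 of the 8 arrays, all but replicate 3 at each age (0.0514 to 0.0723). Cpa3 was called with quantile scaling or the authors' values (adjusted p = 0.0408) and with array weights (0.0147).

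In 85% O2 the levels of Mcpt4 were close at both ages, 1.13 ± 0.45 (SD, n = 4) at P5 and 0.66 ± 0.33 at P14 with scrambled antimiR, a log2 fold change of -0.48 ± 0.25 (SE, adjusted p = 0.129). Those of Cpa3 differed by 0.05 ± 0.29 and of Cma1 by 0.26 ± 0.34, neither called. With scrambled antimiR, Gata2 was called higher (0.60 ± 0.12) and Fcer1a lower, where 26% of all probes were called higher and 16.2% lower. Fcer1a was above background on 4 arrays at P5 and 1 at P14 and entered the fit only through that P5 group, the higher side here, so its call is a description. Its log2 fold change of -1.77 became -0.06 with normexp (adjusted p = 0.736). With antimiR-34a, Cpa3 (1.05 ± 0.29, adjusted p = 0.00573) and Cma1 (1.17 ± 0.34, adjusted p = 0.00759) were called higher and no gene lower, where 19.5% and 16.3% of all probes were called. The methods' t-test called neither Cpa3 nor Cma1. The dimmer Tpsb2 probe was called higher (1.08 ± 0.28, adjusted p = 0.004). Hdc was not called (-0.28 ± 0.12, adjusted p = 0.0797). It was called lower with normexp, quantile scaling or the authors' values (adjusted p of 0.0406 to 0.0459).

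Across the 8 groups, the mean level of Mcpt4 was lowest in 21% O2 at P14 (-2.53 and -2.24), intermediate in 21% O2 at P5 (0.41 and 0.62) and highest in the 85% O2 groups (0.66 to 1.13). Between neighbours in this order, only the step from 21% O2 at P14 to the other groups exceeded the spread, as the P5 groups in 21% O2 overlapped with the 85% O2 groups. Cma1 and Cpa3 also were lowest in 21% O2 at P14 and highest in 85% O2 with antimiR-34a at P14, at -0.81 ± 0.43 and -0.25 ± 0.41. For Hdc the order ran the other way in oxygen, from 2.04 and 2.09 in 85% O2 at P14 through 2.18 and 2.31 in 85% O2 at P5 to 2.75 and 2.81 in 21% O2 at P14 and 3.06 and 3.24 in 21% O2 at P5. The 4 means in 85% O2 had overlapping lungs, and so did the antimiR groups of the same age and oxygen level.

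AntimiR-34a changed none of the genes detectably. In 21% O2 and 85% O2 at P5 and in 21% O2 and 85% O2 at P14, 0 genes were called by limma, and the methods' t-test called 0 in each. At an unadjusted p under 0.05 the counts by limma were 0, 1, 0 and 1. Of all probes, 0.136%, 0.0639%, 0% and 2.66% were called in these 4 comparisons. The smallest p was that of Gata2 in 85% O2 at P5, with levels of 1.29, 0.97, 0.94 and 1.21 with scrambled antimiR and 1.23, 1.25, 1.79 and 1.51 with antimiR-34a. The groups overlapped, and the log2 fold change was 0.34, with a 95% interval from 0.07 to 0.62 and an adjusted p of 0.296. In 85% O2 at P14, Cpa3 had a log2 fold change of 0.52 (95% interval 0.03 to 1.01, adjusted p = 0.264). The dimmer Tpsb2 probe, which is not in the counts, had 0.55 (0.04 to 1.07, adjusted p = 0.26), and the brighter 0.03 (-0.3 to 0.37).

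The intervals bound what could have been missed. For Mcpt4 the 95% interval of the antimiR-34a effect was -0.30 to 0.73 in 21% O2 and -0.53 to 0.50 in 85% O2 at P5, and -0.23 to 0.80 in both oxygen levels at P14. For Cma1 in 85% O2 it was -1.25 to 0.26 at P5 and -0.21 to 1.04 at P14. The oxygen effect did not differ detectably between the antimiRs for any gene: 0 were called at P5 and 0 at P14, where 0.0556% and 0.0884% of all probes were called, and 1 gene and 0 genes had an unadjusted p under 0.05. That gene was Hdc at P5, whose oxygen effect was -1.06 with scrambled antimiR and -0.75 with antimiR-34a, a difference of 0.32 ± 0.15 (adjusted p = 0.455). For Mcpt4 at P14 the difference was 0.00 with a 95% interval of -0.73 to 0.73.

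Within groups, the protease genes moved together from mouse to mouse. Over the 32 mice, each taken as its deviation from its group mean, Cpa3 and Cma1 correlated at r = 0.947 (rho = 0.957) and at 0.811 to 0.998 within the 4 slides. Cma1 correlated with Mcpt4 at r = 0.851 (rho = 0.878) and with the dimmer Tpsb2 probe at r = 0.860 (rho = 0.852). Permuting mice within groups (100000 permutations, two-sided) gave p = 1e-05, the smallest value they allow, for each of these 3 pairs and for rho, and 5.6e-05 after adjustment over 28 pairs of probes. Without the 2 mice farthest from the median of the first gene, r was 0.938, 0.863 and 0.856. The values of a mouse share the scaling of its array.

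The brighter Tpsb2 probe did not join in: its r was -0.125 with Cma1 (rho = -0.0477, adjusted permutation p = 0.736 and 0.853) and 0.0925 with the dimmer probe of the same gene (rho = 0.0872, adjusted p = 0.791 and 0.757). Leaving out the 2 farthest mice gave 0.0468 and 0.148. Gata2 ran against Cpa3, with r = -0.580 (rho = -0.557, permutation p = 0.00555 and 0.00529, adjusted p = 0.0222 and 0.0212), and r was -0.434 without the 2 farthest mice and -0.677 to -0.289 within slides. Against Cma1 it was -0.539 (rho = -0.522, permutation p = 0.00846 and 0.00876, adjusted p = 0.0296 and 0.0307), and -0.472 without the 2 farthest mice. Hdc gave r = -0.266 with Cpa3 (rho = -0.320, adjusted p = 0.420 and 0.277), between -0.889 and 0.773 within slides.

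**Figure D4:**
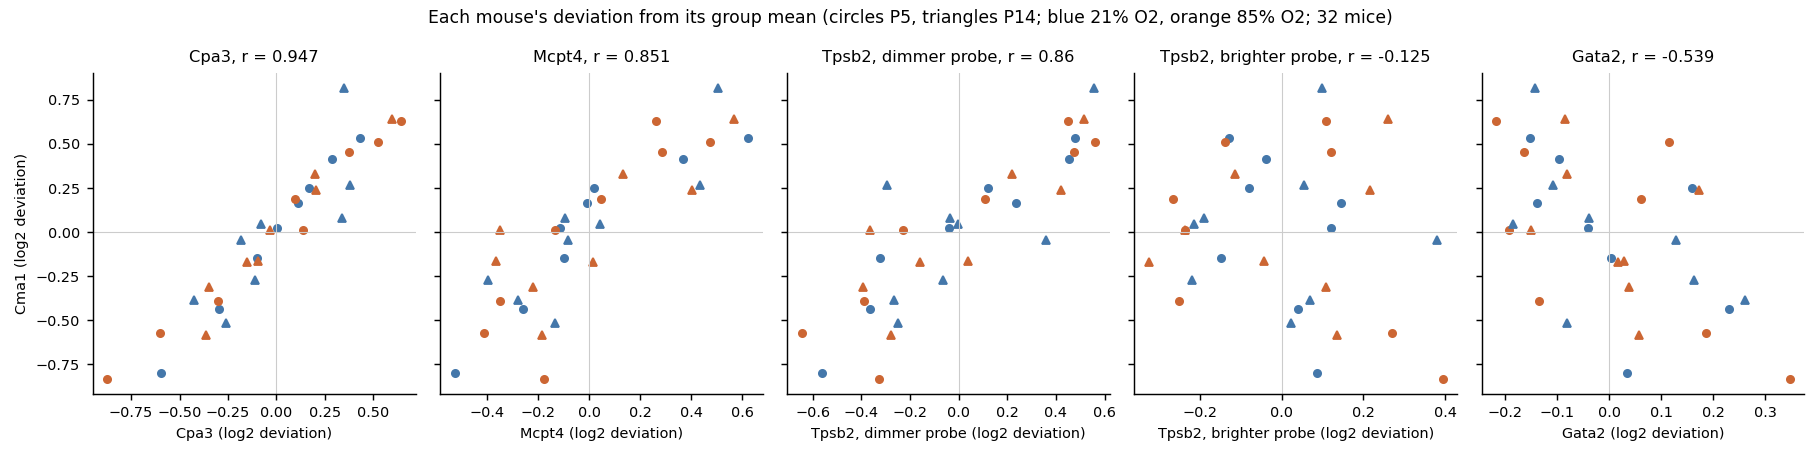
Deviation of each mouse from its group mean (log2) for Cma1 on the vertical axis against Cpa3, Mcpt4, the dimmer and the brighter Tpsb2 probe and Gata2 on the horizontal axes, for 32 mice (circles P5, triangles P14; blue 21% O2, orange 85% O2). Points follow a line for Cpa3, Mcpt4 and the dimmer Tpsb2 probe (r of 0.947, 0.851 and 0.86) and scatter for the brighter probe (r = -0.125).

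Outside the 8 genes, the probe whose level over the 32 arrays was most like the mean of Cpa3, Cma1, Mcpt4, Tpsb2, Ms4a2 and Fcer1a was that of Cma2, a chymase gene related to Cma1, at r = 0.975 (rho = 0.924). It was followed by Clca3a2 (0.949), Lrrn1 (0.940), Shisa6 (0.936) and Mrpl45 (0.936). By deviations from group means the nearest were Cma2 (0.769), Ppp1r3a (0.767), Tepp (0.726), Mcpt-ps1 (0.681), a mast cell protease pseudogene, and Ctsg (0.662), the gene of cathepsin G, another granule protease. These genes were picked as the highest of many probes and are given as a description. Of the genes in the mean, Ms4a2 was above background on 0 of 32 arrays and Fcer1a on 17. Tpsb2 was read on its brighter probe, whose deviations correlated with those of the mean at 0.181.

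The other mast cell genes did not share a single direction in 85% O2. Their counts at P14 stand against 28.4% of all probes called higher and 32.4% lower with scrambled antimiR, and 27.8% and 37.8% with antimiR-34a. Of 6 other granule proteases, 3 could be tested at P14. Ctsg was called higher with both antimiRs. Mcpt2 and Tpsg1 could be tested only because they were above background in the 85% O2 groups, so that their direction was set by the filter and the count of 3 higher says nothing more. Mcpt2 was at least 6.27-fold, Tpsg1 at least 4.11-fold and Ctsg 3.53-fold higher with scrambled antimiR. Mcpt2 and Tpsg1 were not above background on any 21% O2 array at P14, so that only a bound can be given. At P5 Ctsg was not called (0.39 ± 0.29 with scrambled antimiR, adjusted p = 0.292), and Tpsg1 was above background on 4 arrays in 85% O2 and 1 in 21% O2 and passed the filter through that group alone. Of 6 genes of granule storage and amines, 3 rose at P14 with scrambled antimiR, 1 fell and 2 were not called, with a median log2 fold change of 0.14. Tph1, which starts serotonin synthesis, was at least 2.95-fold and Ddc 2.00-fold higher, and Slc18a2, the vesicle carrier for histamine and serotonin, fell by 0.86. Tph1 likewise entered only through the 85% O2 groups at P14, and Il3, Il4 and Hrh3, described below, and the eosinophil gene Prg2 only through 21% O2.

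The eicosanoid enzymes were split likewise, with 2 of 5 higher and 1 lower at P14 with scrambled antimiR and a median of 0.40. Ptgs1 rose 3.00-fold and Ltc4s, the leukotriene C4 synthase, 1.89-fold, while Alox5 fell by 0.53. Of 7 tested receptor and signalling genes, 1 rose and 4 fell (median -0.35). Kit, the receptor for stem cell factor on which mast cells depend, fell 9.04-fold (log2 fold change -3.18 ± 0.12, adjusted p = 3.92e-10), from a mean level of 3.30 to 0.12. At P5 it had fallen 2.82-fold. The signalling kinase Lyn fell by 0.64, and Fcer1g, the gamma chain of the IgE receptor, rose by 0.62. Kit is also expressed outside mast cells, and which cells lost it was not tested.

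Of 8 lineage and secretion genes, 2 rose and 3 fell (median -0.26), led by Rab27b (-0.72 ± 0.08), Spi1 (-0.66 ± 0.23) and Gata1 (-0.48 ± 0.17). Of 8 tested factors that act on mast cells, 4 rose and 2 fell (median 0.06). Kitl, the ligand of Kit, rose 1.89-fold, whereas Il4 was at least 5.85-fold and Il3 at least 1.17-fold lower. All 5 tested histamine receptor and breakdown genes fell (median -0.73), among them Hrh4 (-1.02 ± 0.19), Aoc1 (-1.02 ± 0.18) and Hrh3 (-0.73 ± 0.25). Hrh3 could be tested only through 21% O2 with scrambled antimiR, where it was high, so that the filter set its direction. The median of the list is its value. With antimiR-34a, 4 of the 5 tested genes fell and Aoc1 was not called (median -0.64). Hrh3 was among the 4, though it was above background on 2 of 4 arrays at each oxygen level and entered the fit in the same way. The other lists gave 2 higher and 1 lower of 6 granule and amine genes with antimiR-34a, 2 and 1 of 5 eicosanoid enzymes, 1 and 4 of 7 receptor and signalling genes, 2 and 4 of 8 lineage genes and 3 and 3 of 8 factors. The median over all probes was -0.06 with scrambled antimiR and -0.11 with antimiR-34a. None of these 7 lists had a called gene under antimiR-34a at P5 or in 21% O2 at P14, and in 85% O2 at P14 a single receptor or signalling gene was called.

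**Figure D5:**
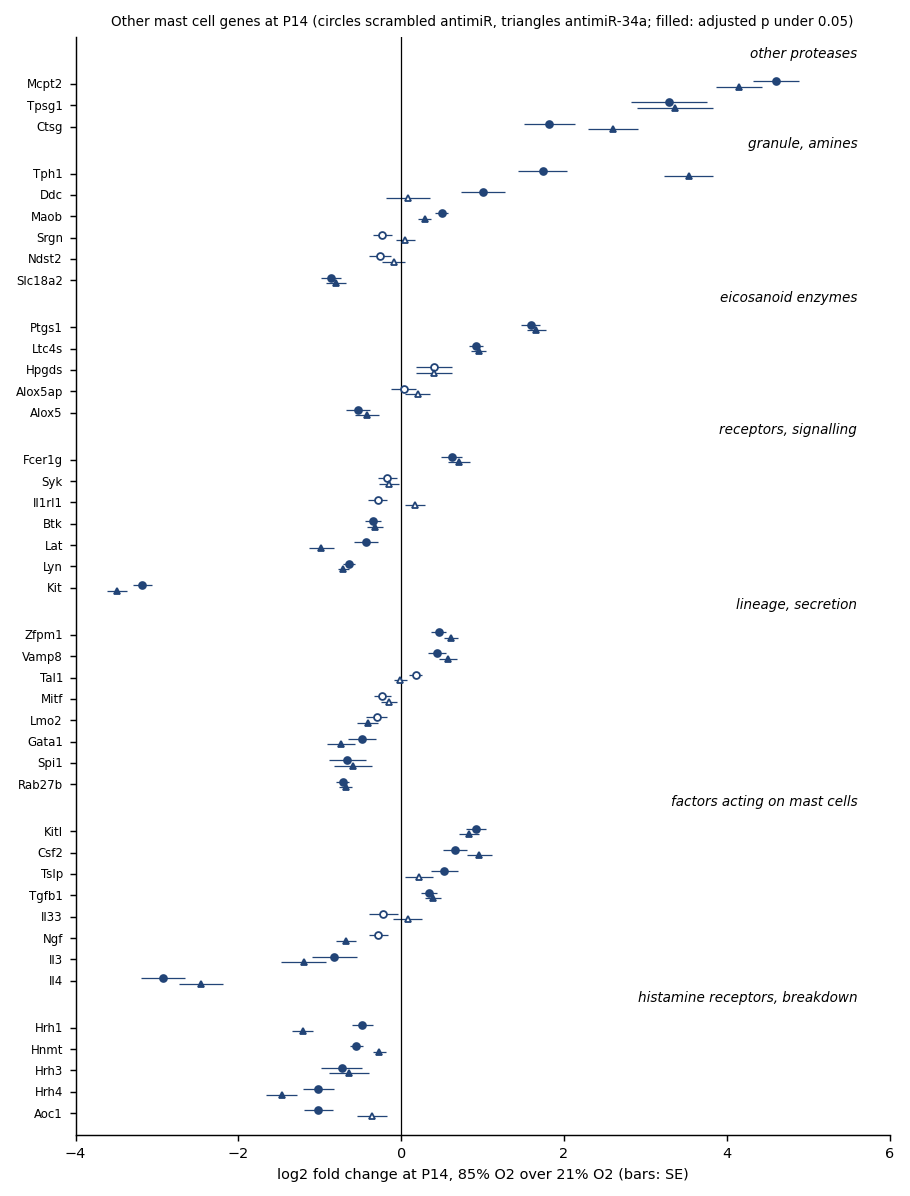
Log2 fold change of 85% O2 over 21% O2 at P14 with its SE for the tested genes of 7 other mast cell lists, with scrambled antimiR (circles) and antimiR-34a (triangles); filled symbols were called. The 3 proteases at the top lie to the right of 0 and Kit lies farthest left in its list at -3.18 and -3.49. The fitted values of Mcpt2, Tpsg1, Tph1, Il3 and Il4 involve a group in which the probe was mostly or wholly below background. Hrh3 was above background on all 4 arrays only in 21% O2 with scrambled antimiR.

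Markers of other blood cells were also measured. At P14 with scrambled antimiR, the eosinophil genes Ccr3, Il5ra and Prg2 fell (3 of 4 tested), and of the 3 tested basophil genes Il3ra rose by 1.23 while Mcpt8 (0.45 ± 0.35) and Prss34 (0.05 ± 0.15) were not called. The summed log2 level of 6 general leukocyte genes was higher in 85% O2 (4.82 to 5.78 against 3.69 to 3.89), with 2 genes higher and 3 lower. The part of these cells in the levels of the mast cell genes was not tested.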

How the data were processed

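Whole-lung RNA of 32 mice was hybridised to one-colour Agilent arrays. Per the file headers, each deposited file holds spot intensity from Agilent Feature Extraction 10.7.3.1, background-subtracted and corrected for trends within the array, but not scaled between arrays. The authors also deposited log2 values per probe, with equal distributions in every array. How they were made is not given in the sources used here. Here, each array was scaled by subtracting its own 75th percentile from the log2 processed intensity. Control spots and outlier spots (0.211%) were left out, and no mouse spot was saturated.

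Groups came from the sample labels. The 16 arrays of an age, or all 32 for ages, were fitted with limma 3.58.1 in R 4.3.3, 1 coefficient for each group, and p-values adjusted by Benjamini-Hochberg across 35982 (P5), 38455 (P14) or 39160 probes. Each gene was read on its probe with the highest mean. From each list, the 3 called genes with the largest change were named. The methods' t-test (unequal variances), other scalings, filters, blocks and each array left out were alternatives, and the dimmer Tpsb2 probe was added as one after seeing the data. Where no array of a group passed background, its values were raised to the faintest probe above background. The members and the 20 lists (132 of 134 genes on the array) were chosen with earlier results of these data known. The results of 1 list are not reported here. Litters were not given, and the labels and the study's methods name different RNA kits. The number of arrays limits the precision. The fits were tested on simulated data.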

Additional observations from a re-analysis of the deposited data

Results flagged for a closer look

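The oxygen effect differed between P14 and P5, by the interaction test of limma, in each antimiR group. With scrambled antimiR the difference of the log2 fold changes was 2.47 for Mcpt4, 1.74 for Cma1, 1.63 for the dimmer Tpsb2 probe, 1.28 for Cpa3 and 0.97 for the brighter Tpsb2 probe. With antimiR-34a it was 2.69, 2.43, 2.14, 1.57 and 0.65 for the same probes. Each age and oxygen level lay on a slide of its own, so age, oxygen and slide cannot be told apart in this difference.

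Of 64 groups of 4 mice examined, 2 had a mouse far from the others, where chance gives about 1 in 20. Both were replicate 3 of the antimiR-34a group in 85% O2 at P14. Its level of Cma1 was -0.16, against -1.11 to -0.97 in the other mice, and its level of Gata2 was 1.48, against 1.58 to 1.60. The gap to the nearest mouse took 0.848 and 0.835 of the group's range.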

How the results depend on the processing

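Under other settings, 178 counts of called genes stayed within 1.5 times the value in the text and 14 did not. In 85% against 21% O2 at P5 with scrambled antimiR, 6 calls became 3 when only the groups compared were fitted, 2 with the methods' t-test and 2 with an added 2-fold threshold. With antimiR-34a at P5, 2 calls became 1 without the filter on dim probes, 1 with the methods' t-test and 0 at 2-fold. At P14 with antimiR-34a, 6 became 3 at 2-fold, as did the 6 calls between ages in 21% O2 with either antimiR. Between ages in 85% O2 with scrambled antimiR, 2 became 1 with the methods' t-test and 1 at 2-fold, and with antimiR-34a, 2 became 0 with the methods' t-test. For antimiR-34a itself, 0 became 1 in 85% O2 at P5 without the filter and 1 in 21% O2 at P14 with array weights. The first was Ms4a2, above background on 0 of 32 arrays, with means of -7.55 with antimiR-34a and -8.1 with scrambled antimiR. The second was Tpsb2 on its brighter probe (0.357, limma adjusted p = 0.0221). The cause of these changes in count was not tested. With 1 array left out, the counts ran from 3 to 6 (P5, scrambled antimiR) and 1 to 4 (P5, antimiR-34a) for oxygen. Scaling by normexp, quantile or the authors' values moved the median of all probes by up to 0.196 (oxygen at P14, antimiR-34a, quantile) and turned no called value.

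Values that changed sign were uncalled before and after. For antimiR-34a, Cma1 at P14 in 21% O2 became 0.0824 with normexp, and Tpsb2 at P5 in 21% O2 -0.199 on the dimmer probe and -0.0319 on the mean of both, and in 85% O2 -0.215 on the dimmer probe. The age difference of the oxygen effect with antimiR-34a on Hdc became -0.00619 with normexp, -0.0626 with quantile and -0.0634 with the authors' values, and with scrambled antimiR on Fcer1a 0.16 with normexp. The antimiR difference of the oxygen effect at P14 became -0.0147 (quantile) and -0.0135 (authors' values) for Hdc, 0.00954 (normexp), 0.115 (quantile), 0.117 (authors' values) and 0.000683 (array weights) for Mcpt4, and 0.488 (dimmer probe) and 0.147 (mean) for Tpsb2, and at P5 -0.0166 (dimmer probe) for Tpsb2. With 1 array left out, signs changed within -0.152 to 0.223 (Cpa3 between ages, 85% O2, scrambled), -0.326 to 0.119 (Cma1) and -0.059 to 0.0822 (Gata2) for antimiR-34a at P14 in 21% O2, -0.204 to 0.0411 (Hdc) and -0.0538 to 0.141 (Tpsb2) in 85% O2, -0.153 to 0.142 (Mcpt4) at P5 in 85% O2, -0.0434 to 0.324 (Fcer1a, oxygen at P5, antimiR-34a), -0.118 to 0.127 (Hdc, oxygen by age, antimiR-34a), and for oxygen by antimiR -0.0338 to 0.281 (Cpa3), -0.14 to 0.105 (Hdc) and -0.19 to 0.168 (Mcpt4) at P14, and -0.427 to 0.0609 (Cma1), -0.339 to 0.166 (Cpa3) and -0.00989 to 0.212 (Tpsb2) at P5.

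The replicate numbers did not pair the mice: over 48 pairs of equal number, deviations correlated at -0.355 to 0.5 (median 0.031). With the replicate number as a block, the P5 oxygen count with scrambled antimiR was 4 in place of 6, and every other count was the same as without the block.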
